A study of Mus musculus with 4 samples.

Results

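Hemoglobin and heme synthesis genes were followed through the cells of mouse bone and bone marrow. The genes were chosen by symbol, and all 10 were found, each as 1 row, among 32285 genes measured. They were the adult alpha globins Hba-a1 and Hba-a2, the adult beta globins Hbb-bs and Hbb-bt, the embryonic beta-type globin Hbb-bh1, 4 heme enzymes (Alas2, Urod, Cpox and Fech) and the mitochondrial iron importer Slc25a37. Counts were unique molecular identifiers (UMIs), which count RNA molecules, and a level here is a gene's UMIs per 10000 UMIs of the same cells. The libraries were read from the 3′ end of transcripts, so these levels were not divided by gene length.

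Hemoglobin is a tetramer of alpha and beta chains, each holding a heme. Heme synthesis begins in the mitochondrion, where the erythroid enzyme Alas2 joins glycine and succinyl-CoA. It passes through the cytosol, where Urod acts, and returns to the mitochondrion, where Cpox and finally Fech act. Slc25a37 (mitoferrin 1) carries the iron that Fech inserts into the ring. In marrow, erythroblasts raise globin and heme production as they mature, then lose the nucleus and become reticulocytes, which still hold globin RNA.

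A young mouse (6 months, n = 1) and an old mouse (24 months, n = 1) were sampled. Both were untreated and INK-ATTAC transgenic, which means that a piece of the p16 promoter drives a caspase 8 that a drug can switch on. Digests of femur and tibia bone and marrow underwent red cell lysis and magnetic depletion of lineage-marked cells, Ter-119 included, before live CD45− cells were sorted. CD24 was read in the same cells with an oligonucleotide-tagged antibody (CITE-seq). The lysis and the Ter-119 step act on red cells, so the counts below describe what passed them and not the marrow. With 1 mouse per age, age, animal and library cannot be told apart, and no test between ages was made. All intervals are exact, at 95%, and take in counting error alone.

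After filtering there were 9794 young and 5550 old cells, with 77411705 and 65543384 RNA UMIs and a median of 6296 and 9667 UMIs per cell. The libraries shared 19 cell barcodes. A single cluster of 283 young and 302 old cells was erythroid-like, with all 14 erythroid markers raised, and clustering had not used the 10 genes. A cluster of 278 young and 135 old cells was progenitor-like, with Kit, Gata2 and Myb raised. Mesenchymal classes held 7987 young and 4162 old cells. Further clusters, of 616 young and 506 old cells, stayed unnamed, and 1 of them, led by Mepe, Myf5, Eno3 and Pax7 (genes of bone and muscle), held 20 young and 24 old cells with 4 or more erythroid markers.

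The sequence before the start of each gene is shown for the adult globins and Alas2, since these genes rose together along maturation. Hba-a1 (ENSMUSG00000069919) and Hba-a2 (ENSMUSG00000069917) lie on chromosome 11, Hbb-bs (ENSMUSG00000052305) and Hbb-bt (ENSMUSG00000073940) on chromosome 7, and Alas2 (ENSMUSG00000025270) on chromosome X. The windows were taken from RefSeq (GRCm38.p6): Hba-a1 (chr11:32283422-32283671, plus strand), Hba-a2 (chr11:32296242-32296491, plus strand), Hbb-bs (chr7:103827929-103828178, minus strand), Hbb-bt (chr7:103813924-103814173, minus strand) and Alas2 (chrX:150547167-150547416, plus strand). Each run is the 250 bases before the start, 5′ to 3′ on the gene's strand. Capitals mark matches on either strand to AGATAA or TGATAA (the core that GATA factors bind), CCNCNCCC (a CACCC-type box) or CCAAT.
Hba-a1: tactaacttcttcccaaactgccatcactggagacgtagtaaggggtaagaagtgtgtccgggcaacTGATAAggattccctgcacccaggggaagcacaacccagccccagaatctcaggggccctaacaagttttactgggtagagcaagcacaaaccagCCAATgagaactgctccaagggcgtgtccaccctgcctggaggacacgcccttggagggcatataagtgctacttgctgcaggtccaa
Hba-a2: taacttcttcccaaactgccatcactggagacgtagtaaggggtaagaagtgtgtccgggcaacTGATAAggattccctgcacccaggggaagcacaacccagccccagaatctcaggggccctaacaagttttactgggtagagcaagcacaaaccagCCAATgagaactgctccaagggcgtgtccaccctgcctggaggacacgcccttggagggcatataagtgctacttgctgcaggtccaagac
Hbb-bs: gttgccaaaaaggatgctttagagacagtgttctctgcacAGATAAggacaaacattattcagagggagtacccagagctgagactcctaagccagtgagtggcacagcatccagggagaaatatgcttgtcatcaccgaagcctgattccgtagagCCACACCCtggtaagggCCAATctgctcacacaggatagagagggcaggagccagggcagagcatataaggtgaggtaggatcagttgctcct
Hbb-bt: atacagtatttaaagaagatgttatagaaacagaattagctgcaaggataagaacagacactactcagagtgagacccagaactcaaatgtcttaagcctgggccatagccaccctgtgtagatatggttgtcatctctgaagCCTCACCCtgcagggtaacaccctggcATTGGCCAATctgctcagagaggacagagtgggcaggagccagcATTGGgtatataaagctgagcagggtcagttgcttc
Alas2: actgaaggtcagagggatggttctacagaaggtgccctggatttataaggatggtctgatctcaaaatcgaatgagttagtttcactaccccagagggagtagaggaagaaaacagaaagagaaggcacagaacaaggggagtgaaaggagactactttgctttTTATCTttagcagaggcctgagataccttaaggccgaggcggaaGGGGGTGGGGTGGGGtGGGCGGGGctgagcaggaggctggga
Windows were overlaid without gaps at the best shift. Those of Hba-a1 and Hba-a2 were the same at 247 of 247 bases once shifted by 3. Those of Hbb-bs and Hbb-bt matched at 127 of 249 bases (51.0%) once shifted by 1. An overlay without gaps can count bases past an insertion or deletion as mismatches, so 51.0% is not the identity of an alignment. A GATA-type match lay 183 bases before the start of Hba-a1, 186 before Hba-a2, 210 before Hbb-bs and 86 before Alas2. None of these letters was found before Hbb-bt. Hbb-bs had a CACCC-type match 93 bases before the start and Hbb-bt 107, and Alas2 had 4 that overlap in part. A GATA-type match was present in 16.6% of all 32851 windows of this length, a CACCC-type match in 45.9% and CCAAT in 33.8%. These matches are descriptions of the letters, not binding sites.

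The adult globins were the members that set erythroid cells apart. In erythroid cells the 4 genes together made up 337 UMIs per 10000 in the young mouse (335 to 338.5) against 764 in the old (762 to 767). In progenitor-like cells they made up 0.291 and 0.869, and in megakaryocyte-like cells, also of the blood lineage, 0.221 and 0.633. Progenitor-like cells had a hemoglobin UMI at 2000 UMIs per cell in 5.40% of young and 14.1% of old cells. The share in megakaryocyte-like cells, which should lack the genes, was 4.76% (0.993 to 13.3) and 21.3% (10.7 to 35.7), so the progenitor share was no higher than that background. Without thinning the shares were 47.1% and 86.7% in progenitor-like cells (median depths of 25122 and 34795 UMIs) against 23.9% and 58.8% in megakaryocyte-like cells (10566 and 10711 UMIs). Hbb-bh1, expressed in the embryonic yolk sac, had 1 UMI in each library.

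Hbb-bs was the globin gene with the most UMIs in erythroid cells, at 150 per 10000 in the young mouse against 342 in the old. Hba-a1 reached 107 and 212, Hbb-bt 59.0 and 129, and Hba-a2 21.0 and 81.0. The alpha genes together took 38.1% of hemoglobin UMIs in the young mouse (37.9 to 38.4) against 38.3% in the old (38.2 to 38.5). The order of the 4 genes was the same in both mice. Among cells with at least 100 hemoglobin UMIs the alpha share per cell had a median of 37.4% (SD 8.43 over 186 cells) and 37.8% (SD 7.80 over 251 cells). Alpha and beta UMIs per cell rose together (Spearman's rho 0.965 and 0.978 over 283 and 302 cells, which share a library and depth). The division of alpha UMIs differed between the libraries, with Hba-a2 at 6.23% of hemoglobin UMIs in the young mouse against 10.6% in the old. These copies are near-identical, so reads may have been split between them unevenly, and the alpha sum is the firmer value.

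**Figure D1:**
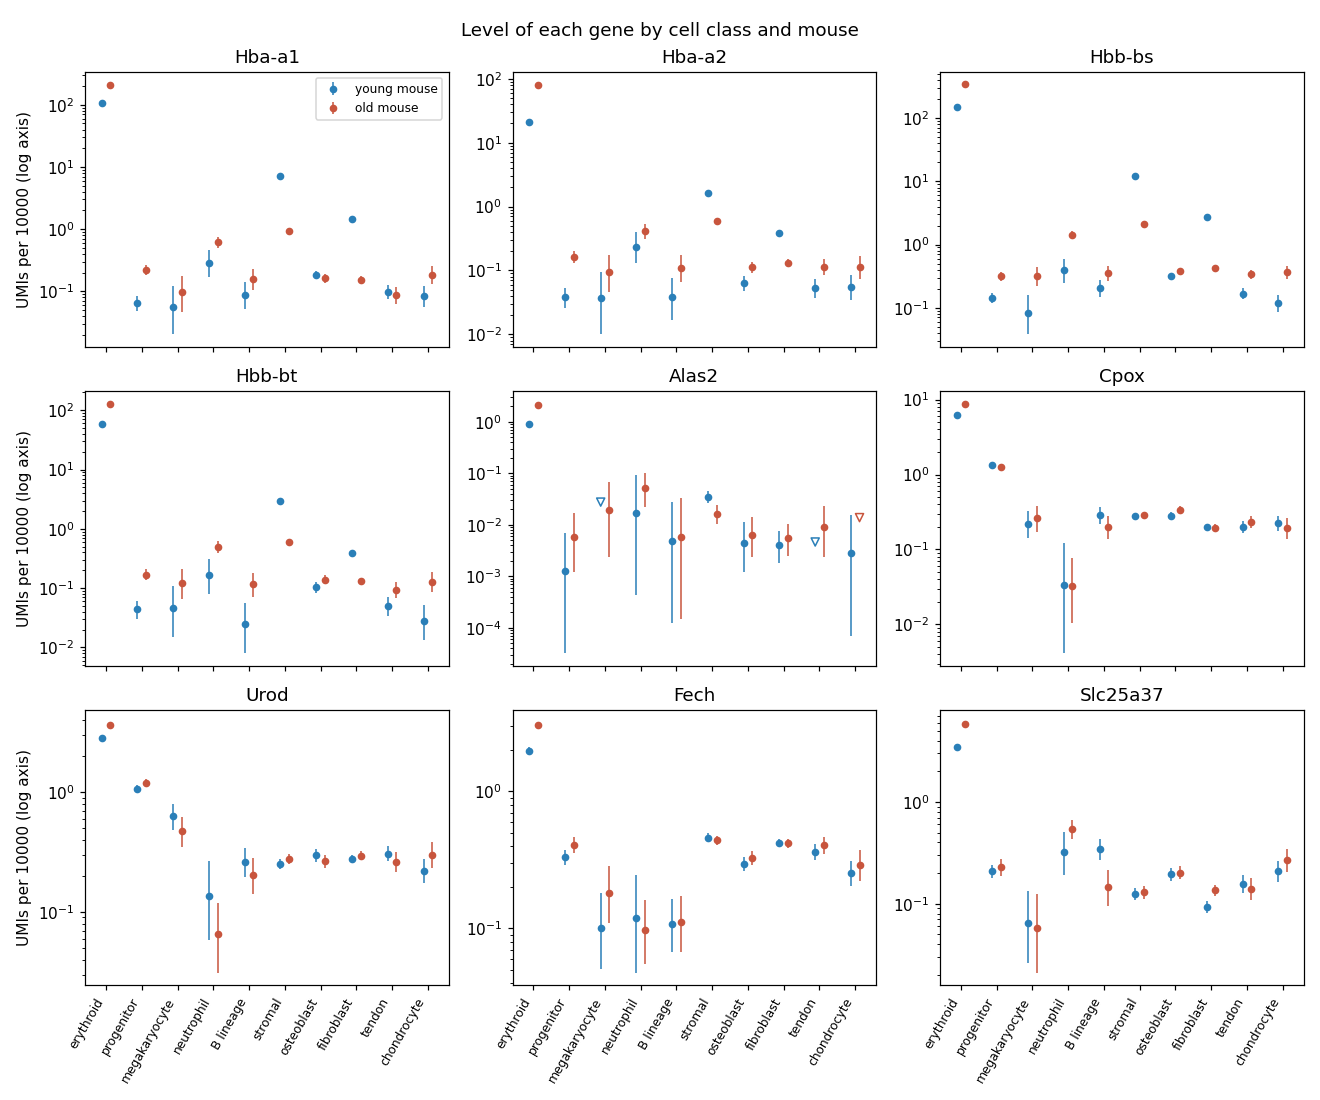
Level of 9 genes (UMIs per 10000, log axis) in 10 cell classes of the young (blue) and old (red) mouse. Points are sums over cells with 95% Poisson intervals, and open triangles mark 0 UMIs at the limit of 3 counts. The 4 globins and Alas2 stood far higher in erythroid cells than elsewhere, while Fech, Cpox and Urod had levels of 0.1 to 1 in most mesenchymal classes.

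The heme genes differed in how far they were restricted to erythroid cells. Alas2 stood at 0.907 per 10000 in young and 2.15 in old erythroid cells, and at 0.0120 and 0.00930 in mesenchymal cells. Progenitor-like cells held 1 and 3 Alas2 UMIs in all. Cpox stood at 6.31 and 8.63 in erythroid cells and was already at 1.35 and 1.27 in progenitor-like cells. Urod reached 2.83 and 3.65 in erythroid cells against 1.07 and 1.19 in progenitor-like cells. Fech was at 1.98 and 3.04 in erythroid cells and at 0.392 and 0.397 in mesenchymal cells. Slc25a37 was at 3.46 and 5.80 in erythroid cells, 0.208 and 0.228 in progenitor-like cells and 0.321 and 0.541 in neutrophil-like cells. In old neutrophil-like cells Cpox had 5 UMIs, where the erythroid ratio to hemoglobin would bring 5.08, so it was not above that background there.

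Erythroid cells were ordered by a stage score, the log2 ratio of 13 late genes (among them Slc4a1, Epb42 and Bpgm) to 8 early genes (among them Kit, Gata2 and Myb), with none of the 10 genes in either list. Tertiles of the score gave early, middle and late stages, which are ranges and not types: 53 of 585 cells lay within 0.25 of the lower cut and 55 within 0.25 of the upper cut. Early cells numbered 133 young and 62 old, middle cells 91 and 106, and late cells 59 and 134. Median depth in early, middle and late cells was 11729, 13016 and 9284 UMIs in the young and 12149, 14759 and 16164 in the old mouse. The median mitochondrial share was 8.20% in early and 3.82% in late young cells, and 13.5% and 3.06% in old cells, and its part in the values below was not tested.

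All 9 genes that passed the filter on low counts rose from the early to the late stage, in both mice. Hbb-bh1 did not pass it. The background in the same fit was 13.8% of 8367 genes higher and 11.8% lower in late cells. The median log2 fold change of the 9 genes was 3.44, against -0.02 over all genes tested. The stages were cut from other genes of the same cells, so the test asks whether the 10 genes followed those genes alike in 2 mice.

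Hbb-bs rose most, from 30.5 to 455 per 10000 in the young and from 34.7 to 582 in the old mouse, a log2 fold change of 4.25 (SE 0.14, adjusted p = 1.17e-09 in edgeR). Hba-a2 rose from 5.88 to 60.5 and from 8.32 to 142 (log2 4.01, SE 0.19, adjusted p = 2.73e-08 in edgeR). Hba-a1 rose from 27.6 to 303 and from 24.5 to 362 (log2 3.95, SE 0.16, adjusted p = 6.72e-09 in edgeR). Hbb-bt rose from 15.6 to 155 and from 16.2 to 212 (log2 3.79, SE 0.16, adjusted p = 6.72e-09 in edgeR). In each mouse the late value of all 4 genes lay above the early one by a factor of 9.93 to 17.1.

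Alas2, the first and rate-limiting enzyme of the pathway, moved most like the globins. Its level went from 0.296 through 1.06 to 2.41 per 10000 in the young mouse and from 0.352 through 1.21 to 3.51 in the old (log2 late over early 3.44, SE 0.19, adjusted p = 1.00e-07 in edgeR). Per 1000 hemoglobin UMIs, Alas2 stood at 3.71 in early and 2.48 in late young cells, and at 4.21 and 2.70 in old cells. Slc25a37 rose from 1.84 to 6.64 and from 2.01 to 8.21 (log2 2.21, SE 0.14, adjusted p = 5.36e-07 in edgeR).

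The later enzymes of the pathway rose less. Fech, which closes the pathway, went from 1.47 to 3.13 per 10000 in the young and from 1.37 to 4.02 in the old mouse (log2 1.58, SE 0.16, adjusted p = 1.76e-05 in edgeR). Cpox went from 5.01 to 8.64 and from 4.46 to 10.99 (log2 1.31, SE 0.15, adjusted p = 4.16e-05 in edgeR). Urod went from 2.21 to 3.72 and from 2.32 to 4.25 (log2 1.08, SE 0.14, adjusted p = 0.000103 in edgeR). With each cell thinned to 2000 UMIs, Urod no longer passed (log2 0.46, adjusted p = 0.155 in edgeR) and the other 8 genes did. TMM factors were 1.08 and 1.12 in early and 0.929 and 0.905 in late cells, and the fitted log2 values stood above the plain ratios of both mice for 8 of the 9 genes, the exception being Hba-a2 in the old mouse (plain log2 4.09). With 2 residual degrees of freedom, the spread of each gene was mostly borrowed from other genes.

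**Figure D2:**
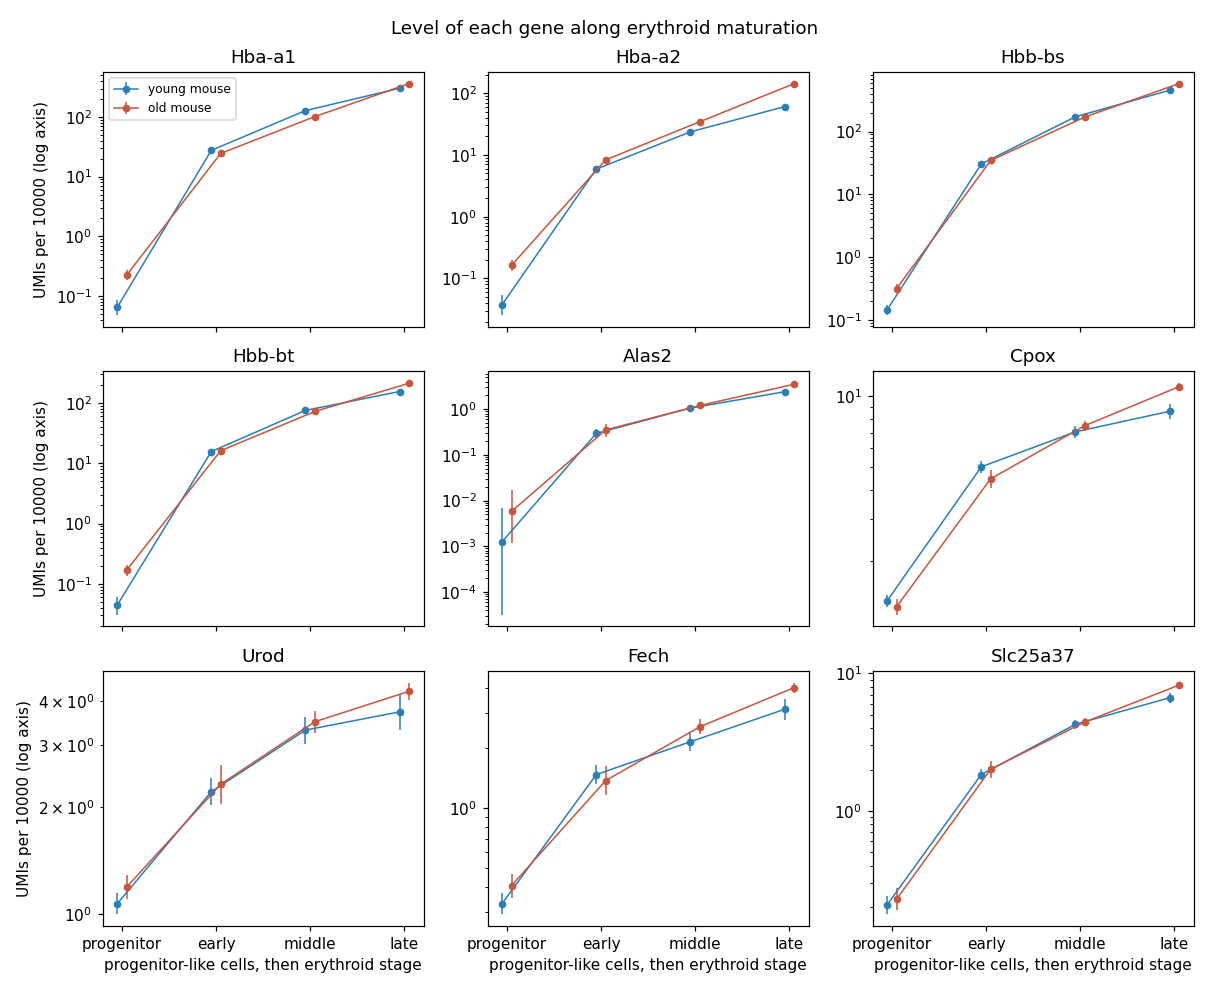
Level of 9 genes (UMIs per 10000, log axis) in progenitor-like cells and in early, middle and late erythroid cells of the young (blue) and old (red) mouse, with 95% Poisson intervals. Every line climbed from early to late. The old mouse was higher for all 9 genes in late cells, and for Hba-a2 also in early (8.32 against 5.88) and middle cells (34.4 against 23.6). Alas2, Urod and Slc25a37 were also higher in early and middle old cells, with intervals that overlapped.

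The rest of the heme pathway moved in the same direction where it moved. Among further heme enzymes, Ppox (log2 1.13), Uros (1.09) and Alad (0.83) rose from early to late. Alas1, the form of the first enzyme used outside erythroid cells, had 14 UMIs in early and 3 in late young cells, and 8 and 16 in old cells, and did not pass (log2 -0.21, adjusted p = 0.828 in edgeR). Of 9 heme and mitochondrial transport genes, 6 rose, led by Tmem14c (1.73), which carries the porphyrin precursor, and Slc25a39 (1.52), Abcg2 (1.47) and Abcb10 (1.23). None of those genes fell.

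Of 10 iron genes, 6 rose and none fell. The leading ones were Ncoa4 (1.70), which directs ferritin to breakdown, Tfrc (1.38), the transferrin receptor and also an erythroid marker here, and the ferritin chain Fth1 (1.29). Of 3 heme breakdown genes tested, the biliverdin reductases Blvrb (0.94) and Blvra (0.84) rose. Of the other globin genes only Hbq1b, a theta-type globin, passed the filter, and it rose (4.29). It had only 3 young and 5 old UMIs in early cells, against 31 and 121 in late cells. The size of its rise is thus uncertain, and the plain log2 ratio in the old mouse was 3.16. Of 10 globin regulators, 7 rose, with Nfe2 (1.38), Tal1 (1.23) and Eif2ak1 (1.13), the heme-regulated kinase, in the lead. Bcl11a, a repressor of embryonic globin genes, fell from 1.57 to 0.593 per 10000 in the young and from 1.15 to 0.439 in the old mouse (log2 -1.16). Gata1 did not pass (0.32, adjusted p = 0.185 in edgeR).

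Hemoglobin levels of the libraries differed over all erythroid cells and, by varying amounts, within stages. Over all erythroid cells, old exceeded young by a factor of 1.97 for Hba-a1 and 3.86 for Hba-a2. The median cell held 242 hemoglobin UMIs in the young mouse against 683 in the old, or 2.13% and 4.43% of its UMIs. Late cells were 59 of 283 young and 134 of 302 old erythroid cells. Within stages the adult globins together stood at 79.6 and 83.7 per 10000 in early young and old cells. In middle cells they stood at 399 and 379, with the young mouse higher. In late cells they stood at 973 and 1299. The stage score has no limit at its late end, so late cells of the mice could differ in how far they had matured, which was not tested.

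CD24 on the cell surface was high in all stages and changed less than hemoglobin. Median antibody counts in early, middle and late cells were 2716, 3683 and 3489 in the young and 4237, 5287 and 5212 in the old mouse. Progenitor-like cells had a median of 256 and 460, and mesenchymal cells 84 and 87 after cells over 10% hemoglobin were left out. Across erythroid cells of a mouse, the hemoglobin share followed the stage score closely (Spearman's rho 0.864 and 0.890) and the antibody count weakly (0.302 and 0.145), in cells that share a library.

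Erythroid cells above the median antibody count of their mouse were compared with those at or below it, 4 sums in all. No member of 9 tested passed, where 0.303% of 8595 genes were higher and 0.349% lower. In the young mouse the 4 adult globins together stood at 226 per 10000 in antibody-low and 414 in antibody-high cells. In the old mouse they stood at 735 and 785. Fitted log2 differences were 0.47 to 0.60 for the 4 globins, with adjusted p from 0.0542 to 0.0857 in edgeR, 0.42 for Slc25a37 (adjusted p = 0.0615) and 0.35 for Alas2 (adjusted p = 0.236). Fech, Urod and Cpox had log2 differences of 0.19, 0.21 and 0.23. At an unadjusted p under 0.05, 1065 genes passed.

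The median stage score was -0.89 in antibody-low and -0.05 in antibody-high young cells, and 0.68 and 0.97 in old cells. Its part in the globin values was not tested. Of the lists, only Fth1 rose (0.30, adjusted p = 0.0314 in edgeR). The call depended on the settings: 4 members rose with no filter on low counts and 5 (the adult globins and Slc25a37) when library sizes left out hemoglobin. DESeq2 and the fit without the mouse called none of all the genes.

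**Figure D3:**
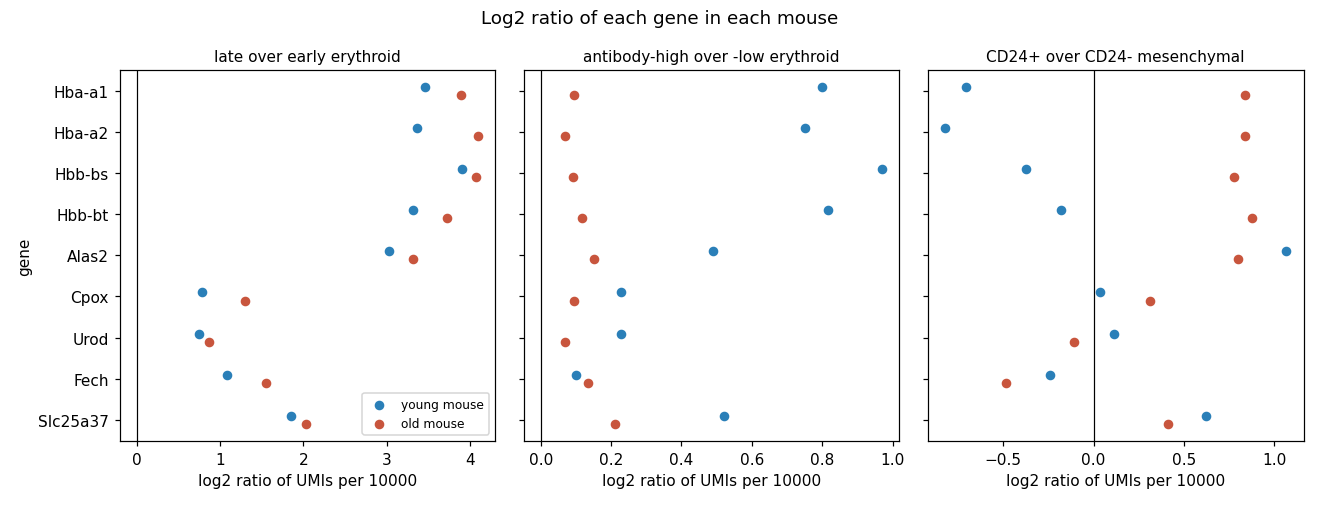
Log2 ratio of UMIs per 10000 for 9 genes in the young (blue) and old (red) mouse, for late over early erythroid cells, antibody-high over antibody-low erythroid cells and CD24+ over CD24- mesenchymal cells. All ratios were above 0 in the first and middle panels, with globin ratios of the young mouse (0.75 to 0.97) far above those of the old (0.07 to 0.12) in the middle one. In the last panel the 4 globins lay on opposite sides of 0 in the mice.

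A few barcodes outside the erythroid cluster held almost only hemoglobin UMIs, and their place in maturation was not tested. Among barcodes kept as cells, 3 young and 5 old ones had at least 80% hemoglobin UMIs, together 95.1% and 95.4%. They held 11183 to 19053 UMIs from only 218 to 318 genes in the young and 13012 to 17299 UMIs from 205 to 322 genes in the old mouse. Their antibody counts were 33 to 68 and 32 to 417, with medians of 50 and 65 beside 84 and 87 in mesenchymal cells, whereas the median late erythroid cell had 3489 and 5212. All 8 fell in the unnamed cluster with mixed markers.

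The heme genes differed in level in these barcodes. Alas2 had 59 UMIs in the young and 137 UMIs in the old barcodes, or 1.26 (0.960 to 1.63) and 1.88 (1.58 to 2.22) per 1000 hemoglobin UMIs, against 2.69 and 2.81 over erythroid cells. Cpox had 0 UMIs in both mice, with exact upper limits of 0.0788 and 0.0506 per 1000 hemoglobin UMIs (0.0641 and 0.0411 at 3 counts), against 18.7 and 11.3 over erythroid cells. Urod had 7 and 1 UMIs, or 0.150 and 0.0137 per 1000 hemoglobin UMIs, against 8.40 and 4.77. Fech had 18 and 30 UMIs, or 0.385 and 0.411 against 5.86 and 3.98. Slc25a37 had 13 and 16 UMIs, or 0.278 and 0.219 against 10.3 and 7.59. All 5 ratios lay below those of erythroid cells in both mice. These barcodes were picked by their hemoglobin share, which lowers every ratio to hemoglobin, so that direction was set by the choice. Only the order among the 5 genes was not.

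The make-up of the globin RNA also differed there. Hbb-bt took 11.98% of hemoglobin UMIs in young and 9.63% in old barcodes of this kind, against 17.5% and 16.9% over erythroid cells. It took 19.6% and 19.3% in early, 18.9% and 19.1% in middle and 15.9% and 16.3% in late cells. The alpha share was 40.6% and 37.2%.

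**Figure D4:**
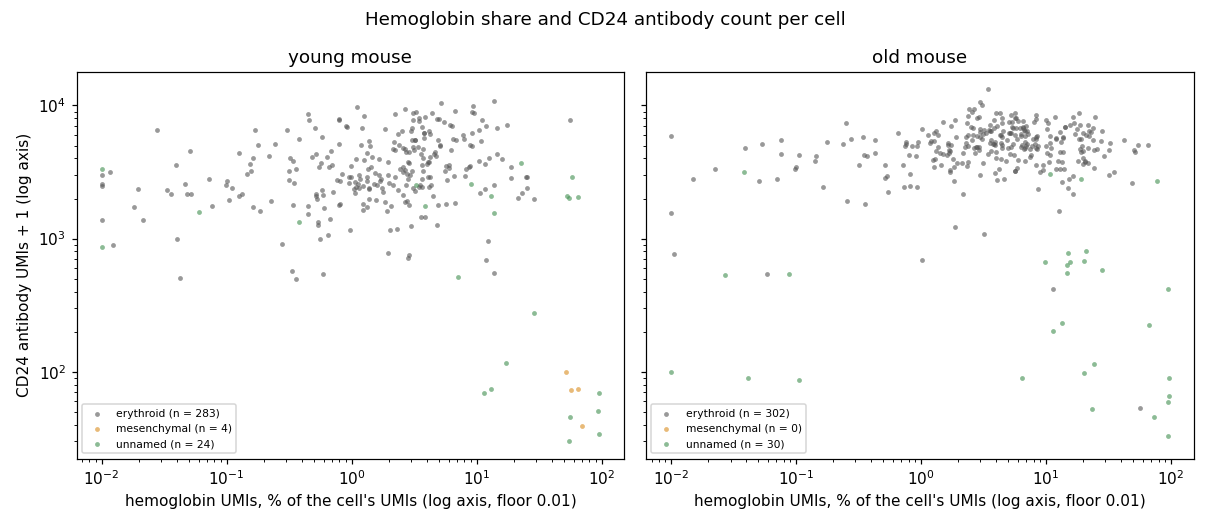
CD24 antibody count plus 1 of a cell (vertical, log axis) against hemoglobin UMIs as a share of its UMIs (horizontal, log axis, values under 0.01% drawn at 0.01%) in the young and old mouse. Erythroid cells are grey, cells of the unnamed clusters with 4 or more erythroid markers or over 50% hemoglobin are green, and mesenchymal cells over 50% hemoglobin are orange. Most erythroid cells had over 1000 antibody UMIs, while the barcodes near 95% hemoglobin had 32 to 417.

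Mesenchymal cells also carried hemoglobin UMIs, and a few barcodes set their level in the young mouse. Over all mesenchymal cells it was 8.59 per 10000 in the young (8.51 to 8.66) and 1.84 in the old mouse (1.80 to 1.88). Only 6 of 7987 young cells were over 10% hemoglobin, and they held 40725 of 49340 hemoglobin UMIs (82.5%). No old mesenchymal cell was over 10%. Without those 6 cells the young level was 1.502 (1.47 to 1.53), below that of the old mouse, so the direction between the libraries turned. The 6 cells held 9346 to 19803 UMIs and 1522 to 4291 genes, and their globin RNA had 10.7% Hbb-bt.

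A hemoglobin UMI was present in 28.5% of young and 62.5% of old mesenchymal cells, at median depths of 6292 and 10117 UMIs. At 2000 UMIs per cell the shares were 13.0% (12.2 to 13.8) and 22.2% (21.0 to 23.6), with 437 and 214 shallower cells left out. Stromal cells, the class with Lepr, Cxcl12 and Adipoq, had the most. At most 10% hemoglobin per cell, they stood at 4.46 per 10000 in the young mouse against 4.20 in the old. Fibroblast-like cells stood at 0.340 and 0.843, osteoblast-like cells at 0.662 and 0.791 and tendon-like cells at 0.367 and 0.635. At 2000 UMIs, 25.0% of young and 33.3% of old stromal cells had a hemoglobin UMI, against 6.49% and 14.3% of fibroblast-like cells, so the share was not alike in all classes. Within the stromal class the UMIs were uneven: 28 of 2780 young and 18 of 1743 old cells held 45.0% and 39.1% of them, and 19 cells in each mouse were over 1% hemoglobin. Without those 28 and 18 cells the stromal level was 2.49 and 2.59, still above every other mesenchymal class left out in the same way.

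**Figure D5:**
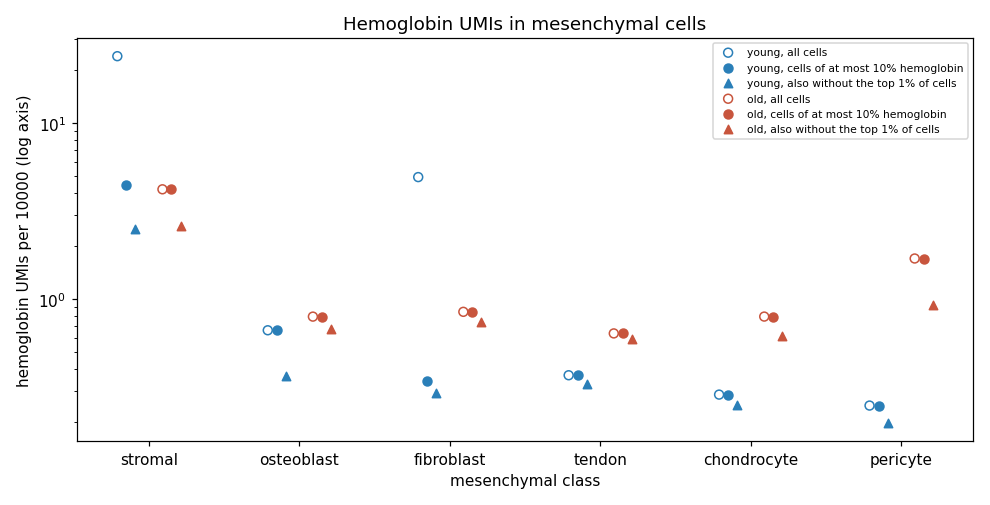
Hemoglobin UMIs per 10000 (log axis) in 6 mesenchymal classes of the young (blue) and old (red) mouse, for all cells (open circles), for cells of at most 10% hemoglobin (filled circles) and for those without the top 1% of cells (triangles). Stromal cells were highest in both mice by each measure, and the open circles of young stromal and fibroblast-like cells fell from 24.0 and 4.93 to 4.46 and 0.340.

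The heme genes in mesenchymal cells could be set against what free erythroid RNA would bring. In cells of at most 10% hemoglobin, 8615 young and 8692 old hemoglobin UMIs would bring 50.5 and 34.6 Fech UMIs at the ratio found in erythroid cells. Observed were 2239 and 1879, so this source would give 2.26% and 1.84% of them. For Urod it would give 4.62% and 3.09%, for Cpox 12.1% and 8.15% and for Slc25a37 11.99% and 9.07%. For Alas2, 22 and 44 UMIs were observed against 23.2 and 24.4 at the erythroid ratio. The young values depended on the cut at 10% hemoglobin, which was chosen after the data were seen. With all young cells kept, the erythroid ratio would give 12.8% of Fech, 26.4% of Urod, 68.6% of Cpox and 66.4% of Slc25a37 UMIs. For Alas2 it would then bring 133 UMIs, against 69 observed. At the ratio of the near-pure hemoglobin barcodes, 0 Cpox UMIs and 3.31 and 3.58 Fech UMIs would be brought. In both mice Fech, Urod, Cpox and Slc25a37 had more UMIs than the erythroid ratio would bring, also with all young cells kept. The near-pure barcodes were picked by a high hemoglobin share, which lowers their ratios, so standing above these was set by that choice. The cut at 10% hemoglobin also raised the ratios of young mesenchymal cells. The source of these UMIs was not tested. Alas2 was above the erythroid ratio in the old mouse and not in the young. The near-pure ratio would bring 10.9 young and 16.3 old Alas2 UMIs, fewer than observed. In the young mouse the intervals of Alas2 per 1000 hemoglobin UMIs overlapped there (1.60 to 3.87 against 0.960 to 1.63).

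In mesenchymal cells the Hbb-bt and Hba-a2 shares lay between those of erythroid cells and near-pure barcodes, while other parts of the globin RNA did not. The Hbb-bt share of hemoglobin UMIs was 14.0% in young and 14.97% in old cells of at most 10% hemoglobin. Hba-a2 took 8.45% and 14.8%, against 6.23% and 10.6% in erythroid cells and 9.23% and 15.8% in near-pure barcodes. Thus the higher Hba-a2 share of the old library was present in each of these kinds of cells. The alpha share was 35.6% in both mice, below erythroid cells (38.1% and 38.3%) and near-pure barcodes (40.6% and 37.2%). Hba-a1 took 27.1% and 20.8%, also below erythroid cells (31.9% and 27.7%) and near-pure barcodes (31.4% and 21.4%). Hbb-bs took 50.45% in the young mouse, above both kinds (44.4% and 47.4%). In the old mouse it took 49.4%, between them (44.8% and 53.15%).

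CD24+ mesenchymal cells, 609 young and 216 old, were compared with 7378 and 3946 CD24- cells. A cell was CD24+ above 315 antibody UMIs (young) or 396 (old). Of 9 members tested, 1 rose, where 5.86% of 15097 genes were higher and 5.69% lower. It was Slc25a37, at 0.125 in CD24- and 0.193 per 10000 in CD24+ young cells and at 0.150 and 0.200 in old cells (log2 0.62, SE 0.13, adjusted p = 0.0245 in edgeR). The call was lost in 5 of the alternatives, among them the fit without the mouse (adjusted p = 0.107), DESeq2 (adjusted p = 0.253) and cells thinned to 2000 UMIs (adjusted p = 0.889). The median log2 difference of the 9 genes was 0.24.

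The globins went opposite ways in the mice. In the young mouse the 4 adult globins stood at 8.85 in CD24- and 6.38 in CD24+ cells, and in the old mouse at 1.75 and 3.07. Of the 6 young cells over 10% hemoglobin, 5 were CD24- and 1 was CD24+. Without them the young values were 1.38 and 2.50, so that both mice were higher in CD24+ cells. This exclusion was chosen after the data were seen, and it removed cells by the quantity then compared, so the fit is a description. Its log2 differences were 1.01 for Hbb-bs, 0.95 for Hbb-bt, 0.82 for Hba-a1 and 0.66 for Hba-a2. They were 1.44 for Alas2, 0.59 for Slc25a37, 0.21 for Cpox, 0.11 for Urod and -0.27 for Fech. No call is drawn from these values. With all cells kept and a threshold set over mesenchymal cells, the 4 globins had log2 values of -0.41 to -0.78, and Hba-a1 had -0.36 at 2000 UMIs, none of which passed. CD24+ cells were deeper, with medians of 9012 against 6085 UMIs in the young and 13967 against 9932 in the old one. Thinned to 2000 UMIs, the shares with a hemoglobin UMI were 13.1% and 13.0% in young and 22.4% and 22.2% in old CD24+ and CD24- cells, so no difference in the number of cells with hemoglobin was detectable.

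Erythroid markers moved with CD24 in these cells. Of 13 tested, 8 rose and none fell, where 5.86% of 15097 genes were higher. The summed level of the markers went from 0.134 to 0.405 per 10000 in the young and from 0.189 to 0.511 in the old mouse. All 14 had a UMI in young CD24+ cells, and 1 was at 0 in old CD24+ cells. The regulators Tal1 (log2 2.46), Gata1 (2.20) and Klf1 (1.67) rose, and the other 7 of 10 regulators did not pass. Gata1 and Klf1 are also among the erythroid markers just counted. All 3 that rose rest on few molecules. CD24+ cells held 8 young and 5 old Tal1 UMIs, 12 and 6 of Gata1 and 12 and 12 of Klf1. Tfrc, also one of those markers, rose too (1.64). Steap3 (-0.49), the iron exporter Slc40a1 (-0.47) and Ftl1 (-0.22) fell, and so did Hmox1 (-0.58), which opens the heme ring. No gene of the heme enzyme and transport lists passed. Whether erythroid RNA or cells account for the difference in Slc25a37 was not tested.

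Across 52 points (clusters with at least 20 cells in a library, in each mouse), 5 genes outside the chosen ones were most like the summed adult globins by Spearman's rho among 14534 genes. They were March3 (0.724), Trim56 (0.708), Adipoq (0.700), Ninl (0.691) and Ccdc71l (0.687). Among the members, Alas2 had 0.666, Fech 0.637, Slc25a37 0.469, Cpox 0.279 and Urod 0.0475. Points of the same library share its free RNA and depth, and most of the 52 points were not erythroid.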

How the data were processed

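The authors deposited raw counts, UMIs of 32285 genes and of 1 CD24 antibody in each barcode, as a matrix for each mouse. The headers name Cell Ranger 6.1.1, and the submitters' processing notes name the build mm10. No normalization had been applied. The deposited barcodes held 82675434 young and 68580402 old RNA UMIs.

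Barcodes under 200 genes or over 20% mitochondrial UMIs were left out, as were predicted doublets (Scrublet in scanpy 1.11.5, 269 young and 57 old). Cells were clustered in Seurat 5.3.0 without the 10 genes and named from marker lists. UMIs were summed per mouse and cell group. Sums were tested with edgeR 4.0.16 (quasi-likelihood F test, TMM, filterByExpr, two-sided, Benjamini-Hochberg over all genes, threshold 0.05) with the mouse as a block, since sums of a mouse come from 1 animal. The block takes out the difference between the mice. P-values therefore weigh a group difference against how unevenly it ran in the 2 mice, mostly with a spread borrowed from other genes. They do not measure the spread between animals of an age. In a simulation 200 genes were changed by a log2 value of 2. Recovered were 93% for stages (8367 genes), 95% for antibody groups (8595 genes) and 90% for CD24 status (15097 genes). Of the calls, 3.12%, 2.56% and 7.69% were false. The simulated counts had no difference between mice and 1 dispersion for all genes. Recovery of smaller changes, such as the antibody differences of 0.19 to 0.60 of the members, was not simulated.

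The members, lists and tests were chosen with earlier results of these data known. Named were all 10 members and, per list of heme, iron and globin genes, up to 4 called genes of largest change. Counts called adjust over all genes tested. The list gene Ahsp was not analysed here, and some list genes are not reported here. Alternatives were other tools and filters, doublets kept, thinning to 2000 UMIs and other ways to define the groups.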

Additional observations from a re-analysis of the deposited data

Results flagged for a closer look

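In CD24+ against CD24- mesenchymal cells, 5 members had log2 ratios of opposite sign in the young and old mouse, with 1 mouse per age, so that this difference was not tested. The ratios were -0.70 and 0.83 for Hba-a1, -0.82 and 0.84 for Hba-a2, -0.38 and 0.77 for Hbb-bs and -0.18 and 0.88 for Hbb-bt. They were -0.47 and 0.81 for the 4 adult globins together, and 0.12 and -0.11 for Urod. For the globins the sign in the young mouse turned when its 6 cells over 10% hemoglobin were left out.

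Barcodes left out for holding under 200 genes carried hemoglobin at 205 UMIs per 10000 in the young and 1062 in the old library, above the level of all kept cells (35.2 and 85.8). Of the 10927 young hemoglobin UMIs there, 97.3% lay in 2 of 588 barcodes, and of the 32416 old ones 98.7% lay in 5 of 298. These 7 barcodes were over 50% hemoglobin.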

How the results depend on the processing

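The mouse was the replicate block. Late against early, all 9 members tested passed in every alternative run, with no replicate block and in DESeq2 too, except that 8 passed at 2000 UMIs per cell; over all genes the 2146 calls became 728 in DESeq2, 486 at 2000 UMIs and 5091 with erythroid cells taken by a gate on 4 markers. By antibody, where no member passed, 4 passed with no filter on low counts, 5 with library sizes without hemoglobin, 9 with the gate and 2 with antibody counts taken per RNA UMI. The 56 calls over all genes became 0 with no replicate block (225 at an unadjusted p under 0.05) and 0 in DESeq2 (113 unadjusted). They became 128 of 8595 with library sizes without hemoglobin, 5 at 10% mitochondrial UMIs at most, 3 at 2000 UMIs and 28 with doublets kept. With no filter 63 of 15633 genes passed, with the gate 4879 of 11071 and per RNA UMI 2291 of 8460. Fech, Cpox and Urod turned to -0.061, -0.078 and -0.00057 at 2000 UMIs, and Cpox to -0.040 per RNA UMI.

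In mesenchymal cells 1 member passed, against 2 with no filter and 4 with doublets kept. None passed with no replicate block, in DESeq2, at 10% mitochondrial UMIs at most, at 2000 UMIs and with an Otsu threshold over mesenchymal cells. The count was 5 without cells over 10% hemoglobin. That alternative was chosen after seeing the data and removed cells by the quantity compared, so its count is no test of the globins. The 1744 calls over all genes became 262 with no replicate block and 1023 in DESeq2. They became 2860 of 22635 with no filter and 2025 of 15266 with doublets kept. The log2 difference of Hba-a1 turned to -0.31 with no replicate block, -0.015 with no filter, -0.36 at 2000 UMIs and -0.78 with the Otsu threshold. Hba-a2 turned to -0.059, -0.034, -0.00029 (library sizes without hemoglobin), -0.012 (10% mitochondrial) and -0.74 (Otsu), Hbb-bs to -0.029 (no replicate block) and -0.51 (Otsu), Hbb-bt to -0.041 (2000 UMIs) and -0.41 (Otsu), Alas2 to -0.045 (Otsu), and Fech to 0.22 and Urod to -0.057 (2000 UMIs). The causes of these changes were not tested.

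Hemoglobin per 10000 in young mesenchymal cells was 8.71 with doublets kept, 5.42 at 2000 UMIs, 5.39 as a mean over cells, 0.770 without the top 1% of cells and 1.502 without cells over 10%. In old ones it was 2.01, 2.33, 2.99 and 1.22 under the first 4 of these and 1.77 at 10% mitochondrial UMIs at most. Young erythroid cells gave 329 (doublets kept), 360 (10% mitochondrial), 384 (2000 UMIs), 380 (mean over cells) and 163 (gate), and old ones 848, 798.8, 799.9 and 426 under the last 4. With 1 mouse per age, no replicate could be left out. Depth limits Alas2 outside erythroid cells, with 69 UMIs in young and 44 in old mesenchymal cells.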

Other observations

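UMIs of the embryonic globin genes lay in few cells. Hbb-y had 25 UMIs in 4 young cells, 22 of them in 1 erythroid cell of 27690 UMIs, and 3 UMIs in 3 old cells. Hba-x had 50 UMIs over 4 young and 15 over 3 old cells. A young stromal cell of 40997 UMIs held 38 of those 50, and it also held the only Hbb-bh1 UMI of the young library and 2152 antibody UMIs. An old erythroid cell of 64988 UMIs held 13 of the 15. Hbb-bh2 had 0 UMIs in 9794 young and 5550 old cells. Hbq1b was spread more widely, with 58 UMIs in 35 young and 153 in 80 old erythroid cells. These cells were singled out after their values were seen.

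In cells of the unnamed clusters with 4 or more erythroid markers, 22 young and 27 old, summed hemoglobin stood at 4012 and 4692 per 10000, above late erythroid cells. The median cell was nearer, at 13.4% and 15.1% hemoglobin beside 8.76% and 11.5% in late cells. In the sums Cpox was at 0.824 and 3.15 per 10000, below its level in early erythroid cells, while Alas2 was at 5.09 and 12.04, above its level in late ones. The cells had a median antibody count of 1559 (young) and 528 (old), and 2 young and 2 old near-pure hemoglobin barcodes were among them. Those barcodes held 17967 and 18198 hemoglobin UMIs in the young and 16378 and 14592 in the old mouse, and each had 0 Cpox UMIs. The summed levels thus lean on a few barcodes and do not describe most of these cells.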
